A study of Mus musculus with 4 samples.

Results

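The genes described here are 37 mouse genes of cholesterol synthesis, fatty acid synthesis and their control, including the liver X receptors (LXR) and LXR targets. They were chosen by name: every probe on the array whose gene symbol, current or earlier, was that of a listed gene belonged to it, and each gene's value was the mean of its detected probes. All 37 had a probe and all 37 were bright enough to test, among 27666 genes with a probe and 18471 genes tested. They were read in CD8+ T cells made in a dish and in CD8+ T cells taken from the thymus, the comparison for which the arrays were made.

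The in vitro-derived cells came from Lin-Sca1+CD117+ marrow cells of C57Bl/6 mice aged 6 to 8 weeks. These were grown for 35 days on OP9-DL1, a mouse stromal line engineered to display Delta-like 1 (a ligand of Notch), in medium holding Flt3 and IL7. The thymic cells came from C57Bl/6 mice aged 4 to 5 weeks. Neither kind was treated, both kinds were sorted as CD8+ cells with a high T cell receptor beta level, and there were 2 RNA preps of each. Each prep of one kind was hybridised against each prep of the other on 4 Agilent arrays, always with in vitro-derived RNA in Cy5 and thymic RNA in Cy3. The dyes were never exchanged, so a dye effect, the age of the donors, the culture and the cell kind cannot be told apart. The submitters called the preps biological replicates, but no label names separate animals or cultures. Each p-value therefore rests on how far these preps lie apart, which may be technical. The fit also draws each gene's spread toward that of all tested genes.

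Cholesterol is built from acetyl-CoA. The mevalonate steps make isoprenoid units, which are joined into farnesyl diphosphate and squalene, and squalene is oxidised, closed into lanosterol and trimmed to cholesterol. Transcription factors of the SREBP family switch on these enzymes when sterols are scarce: Scap escorts SREBP out of the endoplasmic reticulum, and the Insig proteins hold both back when sterols are plentiful. LXR acts in the other direction, since oxidised sterols activate it to induce the exporters Abca1 and Abcg1. In T cells, growth and division are known to draw on sterol synthesis for membrane, and LXR is known to restrain proliferation.

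SREBP and its partners are known to bind just upstream of many of these genes, so the windows around the starts of 5 members are shown. Of the 37 members, 29 matched the RefSeq promoter table (build GRCm38.p6), which gives 250 bases before and 50 bases after each start; Sqle, Fdft1, Fdps, Scd1, Scd2, Stard4, Fads1 and Abcg1 are named only. Fads2, Idi1 and Cyp51 had the largest increases among the matched members and Abca1 the largest decrease. Hmgcs1 was added after the search because it held the full sterol regulatory element. Capitals mark the sterol regulatory element and the CCAAT box, the site of the SREBP partner NF-Y, in either orientation (CCAAT reads ATTGG on the other strand).
Hmgcs1 (chr13:119690101-119690400, + strand): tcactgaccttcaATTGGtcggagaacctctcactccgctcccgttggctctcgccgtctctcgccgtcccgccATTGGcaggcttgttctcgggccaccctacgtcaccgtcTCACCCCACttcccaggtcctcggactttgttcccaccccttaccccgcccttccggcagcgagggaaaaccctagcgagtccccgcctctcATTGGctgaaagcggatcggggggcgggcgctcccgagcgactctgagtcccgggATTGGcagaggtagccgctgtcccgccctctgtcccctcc
Idi1 (chr13:8885356-8885655, + strand): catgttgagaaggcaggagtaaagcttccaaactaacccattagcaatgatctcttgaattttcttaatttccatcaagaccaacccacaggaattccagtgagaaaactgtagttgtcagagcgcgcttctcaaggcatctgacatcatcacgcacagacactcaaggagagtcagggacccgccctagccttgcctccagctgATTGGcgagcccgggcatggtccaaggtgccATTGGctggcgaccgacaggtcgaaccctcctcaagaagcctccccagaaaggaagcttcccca
Cyp51 (chr5:4104648-4104947, - strand): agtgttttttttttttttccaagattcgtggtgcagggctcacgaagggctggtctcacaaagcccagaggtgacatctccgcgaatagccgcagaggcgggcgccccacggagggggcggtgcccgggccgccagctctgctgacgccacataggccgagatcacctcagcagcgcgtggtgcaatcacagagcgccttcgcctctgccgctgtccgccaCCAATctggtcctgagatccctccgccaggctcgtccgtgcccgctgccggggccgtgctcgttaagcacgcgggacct
Fads2 (chr19:10101454-10101753, - strand): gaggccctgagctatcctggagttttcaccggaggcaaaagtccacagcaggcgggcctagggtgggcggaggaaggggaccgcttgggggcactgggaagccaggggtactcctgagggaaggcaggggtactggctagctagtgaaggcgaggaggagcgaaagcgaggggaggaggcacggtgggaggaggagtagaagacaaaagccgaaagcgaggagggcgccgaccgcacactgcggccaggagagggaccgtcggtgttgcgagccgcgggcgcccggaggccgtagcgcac
Abca1 (chr4:53159846-53160145, - strand): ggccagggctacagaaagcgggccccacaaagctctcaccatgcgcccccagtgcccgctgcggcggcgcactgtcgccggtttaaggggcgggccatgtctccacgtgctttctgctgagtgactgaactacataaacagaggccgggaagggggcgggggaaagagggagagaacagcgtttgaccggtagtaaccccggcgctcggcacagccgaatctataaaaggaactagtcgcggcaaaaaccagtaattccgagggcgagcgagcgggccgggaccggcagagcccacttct

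The searched sterol regulatory element, TCACNCCAC on either strand, was found in 1 of the 29 members (3.45%), Hmgcs1, as TCACCCCAC with its first base at position -137 from the start, and in 1.44% of all 27025 genes in the table. Its core CACNCCAC, which lies within the longer motif, was found in 3 members (10.3%), Acat2, Hmgcs1 and Insig1, and in 7.12% of all genes. CCAAT was found in 21 members (72.4%) and in 41.1% of all genes. Among the 5 windows above, those of Hmgcs1, Idi1 and Cyp51 hold it and those of Fads2 and Abca1 do not. The LXR response element, a direct repeat with spacing letters, was searched on both strands as 1 pattern with a fixed first base. That exact pattern was in none of the 29 members' windows and in 0.0962% of all genes. The windows of Abca1 and Fasn and 1 window of Srebf1 hold, on the other strand, letters that differ from it only at that first base. Such near matches were not counted over all genes, so the search does not show that members lack an LXR element. A match is a description of letters, and the absence of one says only that these letters are not in this window.

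Most of the synthesis genes were higher in the in vitro-derived cells, while both sterol exporters were lower. Of the 37 members, 28 (75.7%) were higher and 4 (10.8%) were lower at an adjusted p under 0.05 (limma, Benjamini-Hochberg over all tested genes), and 5 did not pass. The cells differed widely: 51.8% of all tested genes passed, with 26.7% of all tested genes higher and 25.1% lower. The members' median log2 difference was 0.71, beside 0.03 over all tested genes. At least 2-fold differences were found for 12 members higher (32.4%, against 5.57% of all genes) and for 2 members lower (5.41%, against 4.54% of all genes). All 32 members that passed had the same sign on all 4 arrays, which adds no support, since the calls come from these same arrays. In bulk RNA, fewer cells of a type and less RNA per cell cannot be told apart.

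**Figure D1:**
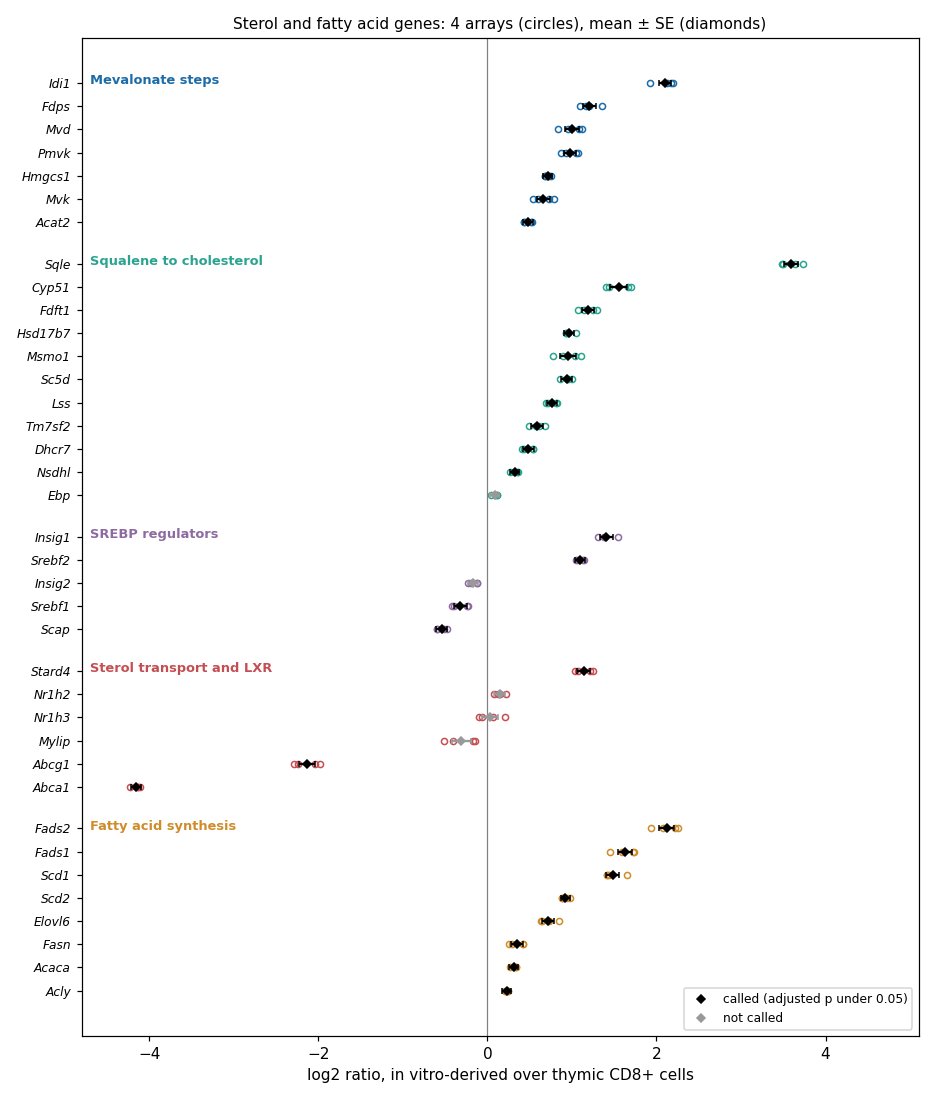
Log2 ratio of in vitro-derived over thymic CD8+ cells (x axis) for the 37 members (y axis), grouped by role and ordered by size. Circles are the 4 arrays, and diamonds with bars are the mean ± SE of the fit, black where the adjusted p is under 0.05. Sqle lies farthest right at 3.59 and Abca1 farthest left at -4.16, and all mevalonate and fatty acid genes lie right of 0.

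All 7 mevalonate genes rose, with log2 differences between 0.48 and 2.10 and a median of 0.98. Levels are given as normalised log2 intensities, which can be compared between preps for 1 gene but not between genes. Idi1, which isomerises isopentenyl diphosphate so that chains can start, had levels of 10.96 and 11.06 in the in vitro-derived preps, against 8.99 and 8.83 in the thymic preps. That was a log2 difference of 2.10 ± 0.070 (SE of the fit, 2 preps of each kind, here and below), adjusted p = 4.99e-05 (limma), or 4.30-fold, the 202nd highest of all tested genes. Both in vitro-derived preps lay about 2 log2 units above both thymic preps. The scanner files place both Idi1 probes on chromosome 2, whereas RefSeq places the gene on chromosome 13, and whether the probes read a copy elsewhere was not tested.

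Fdps joins isoprenoid units into farnesyl diphosphate, the branch point to sterols and to prenylated proteins. It had levels of 11.30 and 11.12 in the in vitro-derived preps, against 9.95 and 10.06 in the thymic preps (log2 difference 1.21 ± 0.077, adjusted p = 0.000263). Mvd decarboxylates the mevalonate product to isopentenyl diphosphate, and it had levels of 11.08 and 11.25 in the in vitro-derived preps, against 10.13 and 10.20 in the thymic preps (1.00 ± 0.084, adjusted p = 0.000596). Pmvk, the kinase before it, had levels of 12.25 and 12.40 in the in vitro-derived preps, against 11.32 and 11.37 in the thymic preps (0.98 ± 0.074, adjusted p = 0.000428). In each of the 3 genes the lower in vitro-derived prep was still above the higher thymic prep, though prep levels did not overlap in 77% of all tested genes. Hmgcs1 condenses acetyl-CoA units into the precursor of mevalonate, and its levels were 9.67 and 9.63 in the in vitro-derived preps, against 8.88 and 9.00 in the thymic preps (0.71 ± 0.055, adjusted p = 0.000466). Mvk, the first kinase of the pathway, rose by 0.66, and Acat2, the cytosolic thiolase that feeds Hmgcs1, rose by 0.48, the smallest difference of the 7. The scanner files place the 3 Hmgcs1 probes on an unplaced sequence, whereas RefSeq places the gene on chromosome 13, and whether they read a copy elsewhere was not tested.

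Of the 11 genes that take farnesyl diphosphate to cholesterol, 10 rose and 1 did not pass, with a median of 0.94. Sqle, the squalene epoxidase that makes the first oxidised step and is known as a control point of the pathway, stood far above the others. Its levels were 12.05 and 12.20 in the in vitro-derived preps, against 8.56 and 8.51 in the thymic preps. Each in vitro-derived prep exceeded each thymic prep by more than 3 log2 units on its array, between 3.49 and 3.74. The log2 difference was 3.59 ± 0.083, adjusted p = 2.34e-05, or 12.0-fold, the 26th highest of all tested genes.

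The enzymes on either side of Sqle changed less. Fdft1, the squalene synthase before it, had levels of 11.40 and 11.65 in the in vitro-derived preps, against 10.36 and 10.31 in the thymic preps (1.19 ± 0.076, adjusted p = 0.000267). Fdft1 was at 0.62 when a second, dim probe was let in. Lss, which closes the rings to lanosterol after it, rose by 0.76 ± 0.063. Cyp51, the cytochrome that removes a methyl group from lanosterol, had levels of 9.15 and 9.47 in the in vitro-derived preps, against 7.78 and 7.74 in the thymic preps (1.55 ± 0.098, adjusted p = 0.000255). Cyp51 was therefore the second highest gene of the group, at 2.93-fold. Its in vitro-derived preps differed by 0.26 between themselves when measured within arrays, the widest positive gap among the members. Tm7sf2, the sterol reductase that acts on the product of Cyp51, rose by 0.59 ± 0.068.

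The 3 enzymes that strip the remaining methyl groups are known to work in sequence. Msmo1, the methyl oxidase listed on the array under its earlier symbol Sc4mol, had levels of 12.23 and 12.50 in the in vitro-derived preps, against 11.40 and 11.42 in the thymic preps (0.96 ± 0.095, adjusted p = 0.00104). Hsd17b7, the ketoreductase of the set, had levels of 9.05 and 8.99 in the in vitro-derived preps, against 8.08 and 8.03 in the thymic preps (0.97 ± 0.058, adjusted p = 0.000226). Nsdhl, the decarboxylating dehydrogenase between them, had levels of 9.21 and 9.24 in the in vitro-derived preps, against 8.89 and 8.91 in the thymic preps and a difference of only 0.32 ± 0.056, adjusted p = 0.00676. All 3 rose without overlap between the kinds of cells, which also held for 77% of all tested genes in either direction. Nsdhl rose by much less, and its call was lost when either thymic prep was left out.

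The closing steps differed among themselves. Sc5d, a desaturase of the sterol ring, had levels of 10.56 and 10.42 in the in vitro-derived preps, against 9.60 and 9.51 in the thymic preps (0.94 ± 0.061, adjusted p = 0.000287). Dhcr7, a reductase at the end of the pathway, rose by 0.48 ± 0.064. Ebp, the isomerase, did not pass: it had levels of 13.82 and 13.79 in the in vitro-derived preps, against 13.71 and 13.73 in the thymic preps (0.09 ± 0.055, adjusted p = 0.238). The members of this group that passed thus ranged from 0.32 for Nsdhl to 3.59 for Sqle.

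The 5 genes of SREBP control did not move together: 2 rose, 2 fell and 1 did not pass, with a median of -0.17. Srebf2, which encodes the SREBP that chiefly drives sterol genes, had levels of 11.45 and 11.39 in the in vitro-derived preps, against 10.32 and 10.33 in the thymic preps. Its log2 difference was 1.10 ± 0.057, adjusted p = 0.000156, or 2.14-fold. Insig1, itself a target of SREBP and the brake on its processing, had levels of 8.63 and 8.57 in the in vitro-derived preps, against 7.23 and 7.14 in the thymic preps (1.41 ± 0.074, adjusted p = 0.000157). Both genes were higher in every in vitro-derived prep than in either thymic prep, and 77% of all tested genes likewise had no overlap. Insig1 stood at 2.25 with the scanner software's processed signals, re-centred on each array's median, and at 2.11 in the authors' deposited table of ratios.

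Srebf1, which encodes the SREBP forms tied more to fatty acid genes and is a known LXR target, fell: its levels were 13.98 and 13.87 in the in vitro-derived preps, against 14.25 and 14.24 in the thymic preps (-0.32 ± 0.074, adjusted p = 0.0179). Scap, the escort protein, fell by 0.54, with levels of 13.30 and 13.34 in the in vitro-derived preps, against 13.84 and 13.89 in the thymic preps (SE 0.061, adjusted p = 0.00158). Insig2, the second Insig gene, did not pass, with levels of 8.89 and 8.98 in the in vitro-derived preps, against 9.10 and 9.11 in the thymic preps (-0.17 ± 0.059, adjusted p = 0.066). The sign of these 3 small values depends on how the 2 colours were balanced. When each array's log ratios were centred on their median in place of loess, the median of all genes was 0.34, and Srebf1 stood at 0.64, Scap at 0.35 and Insig2 at 0.29, each higher at an adjusted p under 0.05 (limma). In the authors' deposited ratios, which are the scanner's own, Srebf1 kept its call. With the software's processed signals, centred here on each array's median, Srebf1 was at -0.19 and no longer passed (adjusted p = 0.144, limma). Leaving out either thymic prep also cost Srebf1 its call. Insig2 passed as lower in the authors' deposited table of ratios (-0.32, adjusted p = 0.035, limma) and without in vitro-derived prep 2 (-0.21, adjusted p = 0.0448, limma).

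**Figure D2:**
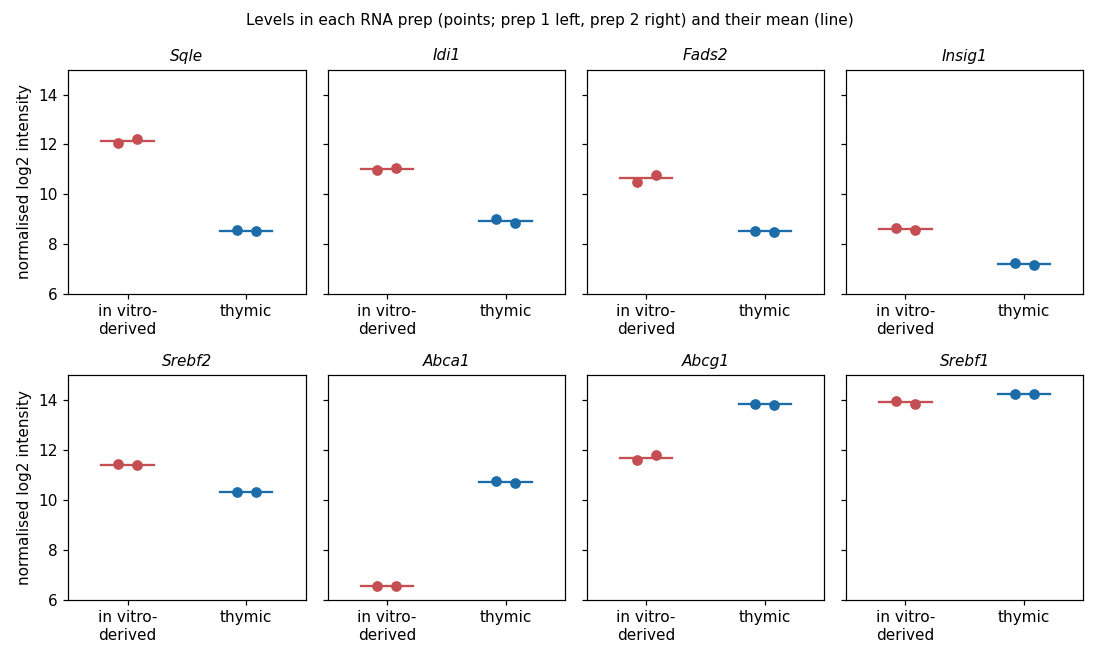
Normalised log2 intensity (y axis) of 8 members in each RNA prep, in vitro-derived left and thymic right in every panel. Points are the 2 preps of a kind and lines their mean; in Sqle, Idi1, Fads2, Insig1 and Srebf2 both in vitro-derived preps lie above both thymic preps, and in Abca1, Abcg1 and Srebf1 below.

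In sterol transport and LXR signalling, the exporters fell steeply, 1 carrier rose and the receptors did not pass. Of these 6 genes 1 rose, 2 fell and 3 did not pass, with a median of -0.14. Abca1, which moves cholesterol from the membrane to apolipoproteins, had levels of 6.56 and 6.55 in the in vitro-derived preps, against 10.74 and 10.67 in the thymic preps. The 4 arrays gave ratios between -4.23 and -4.11, so the preps of each kind were nearly alike. The log2 difference was -4.16 ± 0.056, adjusted p = 1.77e-05, a 17.8-fold decrease and the 7th lowest of all tested genes. Abca1 was above background on all 4 arrays in both channels, but its in vitro-derived level was low. Lyz1, a myeloid marker with a mean of 6.10 in the in vitro-derived preps, was above background on only 1 array there. With the background fitted on all spots Abca1 was at -3.61 with an SE of 0.49, so its small spread depends on that step.

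Abcg1, which passes cholesterol to lipoprotein particles, had levels of 11.59 and 11.81 in the in vitro-derived preps, against 13.85 and 13.82 in the thymic preps. Its log2 difference was -2.14 ± 0.097, adjusted p = 0.000108, a 4.39-fold decrease, the 155th lowest of all tested genes. Under median centring it was -1.34 and still passed (limma), while Abca1 kept its call under all 19 alternatives, between -5.25 and -3.61. The 2 exporters were the 2 members that fell at least 2-fold.

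The receptors themselves showed no called difference. Nr1h2, the LXR beta gene, had levels of 11.91 and 11.84 in the in vitro-derived preps, against 11.80 and 11.66 in the thymic preps (0.15 ± 0.061, adjusted p = 0.107). Nr1h3, the LXR alpha gene, had levels of 7.96 and 7.70 in the in vitro-derived preps, against 7.77 and 7.83 in the thymic preps (0.03 ± 0.090, adjusted p = 0.803). It was the 1 member whose preps overlapped between the kinds: the levels of 36 of 37 members (97.3%) did not overlap, against 77% of all tested genes. Mylip, an LXR target that marks lipoprotein receptors for degradation, had levels of 9.29 and 8.93 in the in vitro-derived preps, against 9.39 and 9.45 in the thymic preps (-0.31 ± 0.11, adjusted p = 0.0678). Its in vitro-derived preps lay 0.30 apart within arrays, the widest gap of any member, and leaving out in vitro-derived prep 1 gave -0.46, which passed (adjusted p = 0.00687, limma).

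Stard4, a soluble carrier that moves sterol between membranes and is a known SREBP target, went with the synthesis genes. It had levels of 9.83 and 9.99 in the in vitro-derived preps, against 8.75 and 8.79 in the thymic preps (1.14 ± 0.077, adjusted p = 0.000311), a 2.21-fold increase.

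All 8 fatty acid genes rose, with a median of 0.82 and a range from 0.23 to 2.12. The desaturases moved most. Fads2, which starts the desaturation of polyunsaturated fatty acids, had levels of 10.47 and 10.79 in the in vitro-derived preps, against 8.53 and 8.49 in the thymic preps (2.12 ± 0.091, adjusted p = 9.49e-05), or 4.35-fold. Fads1, which acts after it, had levels of 10.30 and 10.63 in the in vitro-derived preps, against 8.83 and 8.85 in the thymic preps (1.62 ± 0.084, adjusted p = 0.000149), or 3.08-fold. Both genes had in vitro-derived prep 2 above in vitro-derived prep 1, and both preps well above the thymic ones.

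Scd1, which places the first double bond in saturated chains, had levels of 8.46 and 8.42 in the in vitro-derived preps, against 6.98 and 6.94 in the thymic preps (1.48 ± 0.075, adjusted p = 0.000142). Scd2, its paralogue, had levels of 14.59 and 14.60 in the in vitro-derived preps, against 13.63 and 13.72 in the thymic preps (0.92 ± 0.057, adjusted p = 0.000248). Neither gene overlapped between the kinds, as was the case for 77% of all tested genes. The size of the Scd1 difference moved with the processing: it was 2.68 with the processed signals and 2.55 in the authors' deposited table of ratios.

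The enzymes that make the chain changed least. Elovl6, which lengthens palmitate, rose by 0.71 ± 0.072, and Fasn, which builds palmitate, rose by 0.35 ± 0.071. Acaca, which makes the malonyl-CoA for it, had levels of 7.82 and 7.81 in the in vitro-derived preps, against 7.49 and 7.52 in the thymic preps (0.31 ± 0.055, adjusted p = 0.00711). Acly, which makes cytosolic acetyl-CoA from citrate, rose by 0.23 ± 0.053 (adjusted p = 0.0174, limma). The calls of Acaca, Acly and Fasn were lost when either thymic prep was left out, with adjusted p between 0.0796 and 0.213, while their values stayed positive. Acaca and Acly also lost their calls when the background was fitted on all spots, at 0.26 and 0.19, and Acly without the filter on dim probes and in the authors' deposited table, at 0.19 in both.

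Probes to the same gene did not always give the same difference. Of the 68 probes to members 65 were tested, and 18 members had several. The other 19 members rested on 1 tested probe each, Sqle, Abca1, Abcg1, Fads1 and Fads2 among them. Their values have no second tested probe beside them. In 13 of the 18 all probes passed in the same direction, in 3 some passed and some did not, in 1 they passed in opposite directions, and in Mylip neither passed. Nsdhl was the gene with opposite calls. Its 3 probes on the RefSeq mRNA gave 0.47, 0.59 and 0.61, and its probe on a cDNA clone gave -0.37 ± 0.079 (adjusted p = 0.0131, limma on probes). With RefSeq mRNA probes alone Nsdhl stood at 0.55.

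Insig2, Acaca and Hmgcs1 each had probes that passed and probes that did not. The 3 mRNA probes of Acaca gave 0.16, 0.17 and 0.17 and none passed, and its clone probe gave 0.74 (adjusted p = 0.00254, limma). With mRNA probes alone, Acaca was at 0.17 (adjusted p = 0.0404, limma). The mRNA probes of Hmgcs1 gave 1.28 and 0.36, both passing, and its clone probe gave 0.50, which did not pass (adjusted p = 0.0805, limma). The probe at 1.28 (SE 0.14) had higher ratios with in vitro-derived prep 2, and the clone probe (SE 0.19) with in vitro-derived prep 1. These prep differences offset each other in the gene's mean, whose SE was 0.055. With mRNA probes alone Hmgcs1 stood at 0.82 ± 0.097. The probes of Insig2 differed in sign: 1 was at 0.16, not passing, and 1 at -0.50, lower (adjusted p = 0.00534, limma). Among genes whose probes all passed, Fdps spanned 0.49 to 1.92, Idi1 1.56 to 2.64, Insig1 0.99 to 1.83 and Srebf2 0.41 to 1.60. The gene-level values of these 4 and of Hmgcs1 are therefore averages of unlike probes, and what each probe reads was not tested.

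**Figure D3:**
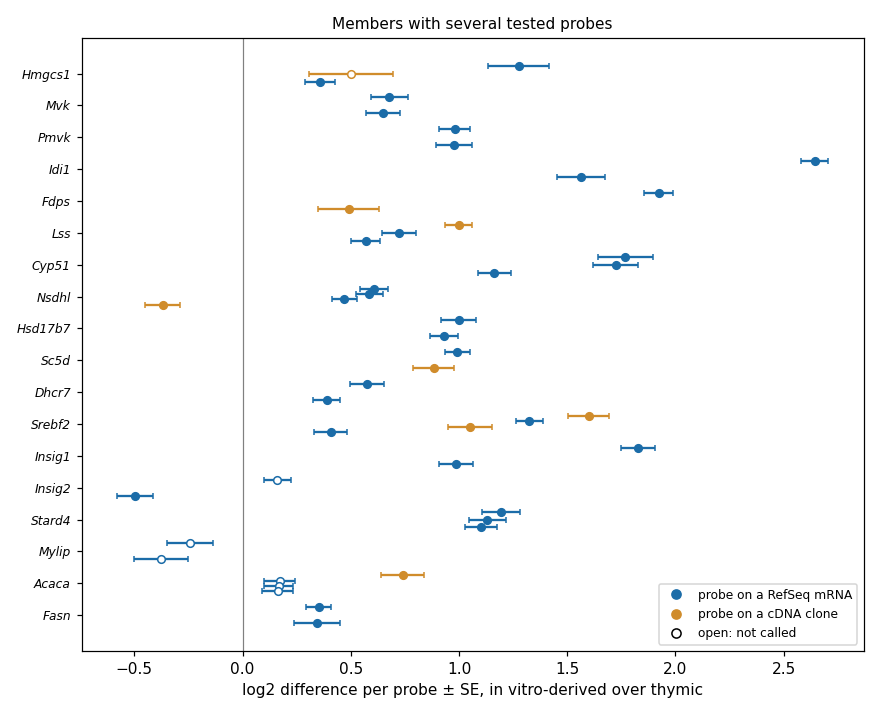
Log2 difference of in vitro-derived over thymic cells ± SE (x axis) for each tested probe of the 18 members with several tested probes (y axis). Blue probes lie on a RefSeq mRNA and orange probes on a cDNA clone, and open circles did not pass. The clone probe of Nsdhl lies at -0.37, left of its 3 mRNA probes, and the 2 Idi1 probes lie at 1.56 and 2.64.

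Other genes of the same pathways changed in both directions, except those around LXR, of which none rose. Of 20 further sterol and isoprenoid genes 17 were tested, of which 5 rose, 6 fell and 6 did not pass (median -0.05). Of 9 further genes of SREBP processing 1 rose, 3 fell and 5 did not pass (median -0.04). Of 18 further fatty acid genes 16 were tested, of which 5 rose, 8 fell and 3 did not pass (median -0.21). Of 7 further LXR partners and targets none rose, 6 fell and 1 did not pass (median -0.60), so 85.7% fell. The shares that rose were 29.4% of the sterol, 11.1% of the SREBP and 31.2% of the fatty acid genes tested, beside 26.7% of all genes. The shares that fell were 35.3% of the sterol, 33.3% of the SREBP and 50% of the fatty acid genes tested, beside 25.1% of all genes.

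The 6 largest differences among them were in both directions. Acsl3, which activates long-chain fatty acids, had levels of 10.53 and 10.60 in the in vitro-derived preps, against 8.25 and 8.13 in the thymic preps (2.37 ± 0.054, limma adjusted p = 2.22e-05). Fads3, a desaturase homologue, was not well above background on any thymic array and was at least 2.18-fold higher, with mean levels of 7.41 in the in vitro-derived preps and 6.23 in the thymic preps (adjusted p = 0.000149). That bound sets the bright mean against the dimmest signal still well above background. Acacb, the mitochondrial counterpart of Acaca that restrains fatty acid burning, had 7.02 and 7.01 in the in vitro-derived preps, against 9.05 and 9.13 in the thymic preps. It fell by 2.07, in the opposite direction to Acaca.

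Arl4c, a small GTPase known as an LXR target, had levels of 11.26 and 11.69 in the in vitro-derived preps, against 13.89 and 13.90 in the thymic preps (-2.42 ± 0.15). Rxra, a receptor that pairs with LXR, had 7.32 and 7.55 in the in vitro-derived preps, against 8.77 and 8.81 in the thymic preps (-1.36 ± 0.077). Both fell in the same direction as Abca1 and Abcg1. Elovl7, an elongase, had 6.49 and 6.85 in the in vitro-derived preps, against 8.74 and 8.81 in the thymic preps (-2.11 ± 0.13).

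The in vitro-derived preps differed more between themselves than the thymic ones did. Over the 37 members the median size of the difference between the 2 in vitro-derived preps was 0.12 and the largest 0.30, and between the 2 thymic preps 0.056 and 0.12. The log ratios of the 4 arrays correlated at 0.947 to 0.985 over tested genes, which is a description, since the arrays share preps.

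Cell type markers and cell cycle genes moved beside the members. All 12 cell cycle genes listed were higher, with a median of 1.61, and their summed level was 17.83 to 17.98 in the in vitro-derived preps and 16.61 to 16.62 in the thymic preps (log2). Of the 8 T cell markers, 5 were lower and 2 higher, and their summed level was 17.92 to 18.03 in the in vitro-derived preps and 18.08 to 18.09 in the thymic preps. Cd3d was at 0.02 and did not pass, and Cd8a was at -0.77. The median level of the T cell markers was 14.36 to 14.58 in the in vitro-derived preps and 14.82 to 14.83 in the thymic preps, so the labelled cell type had its markers in both kinds.

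Stromal markers were higher in the in vitro-derived preps. Of the 9 listed, 6 were tested and all 6 passed, Pdgfrb at 4.69 and Col1a2 at 2.94 among them, although 1 of them, Thy1, is also a T cell marker. The summed level of the 5 others was 12.83 to 13.14 in the in vitro-derived preps and 9.66 to 9.77 in the thymic preps. With Thy1, which makes up most of the sum, it was 14.91 to 14.98 in the in vitro-derived preps and 14.09 to 14.29 in the thymic preps. Pdgfra, Dcn and Lum were too dim to test. Of 8 adipocyte markers 6 were tested and 4 passed, Fabp4 at 1.32 among them, while Plin1 and Cfd were too dim to test. Their summed level was 9.95 to 10.17 in the in vitro-derived preps and 9.52 to 9.54 in the thymic preps. Of 10 myeloid markers 9 were tested, of which 2 were higher and 3 lower, with Lyz2 at -1.53, and their summed level was 10.49 in both in vitro-derived preps and 10.66 to 10.67 in the thymic preps. Mrc1 was too dim to test. Of 4 B cell markers 1 was lower and 3 did not pass, and none of the 3 dendritic and 2 erythroid markers tested passed. The part of cycling, stromal, adipocyte or myeloid RNA in the members' differences was not tested.

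The way the colours were balanced shifted the whole table. Median centring put the median of all genes at 0.34 and that of the members at 1.21, with 34 members higher and 2 lower, Abca1 and Abcg1. Ebp (1.00), Nr1h2 (0.84) and Nr1h3 (0.35) then passed as higher, and Mylip was at 0.03 and did not pass. The processed signals, also centred on each array's median, gave medians of 0.13 for all genes and 0.99 for the members. There 29 members were higher, Nr1h2 (0.26) now among them, and 3 lower. Of all calls, 83.1% were higher under median centring and 60.2% with the processed signals, against 51.5% after loess. The share was lower with the background fitted on all spots, at 46.1%, and from the authors' deposited table of ratios, at 46.9%. The median of the members lay above that of all genes under each of these 5 settings, at 0.65 with the background fitted on all spots and 0.855 from the authors' deposited table.

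**Figure D4:**
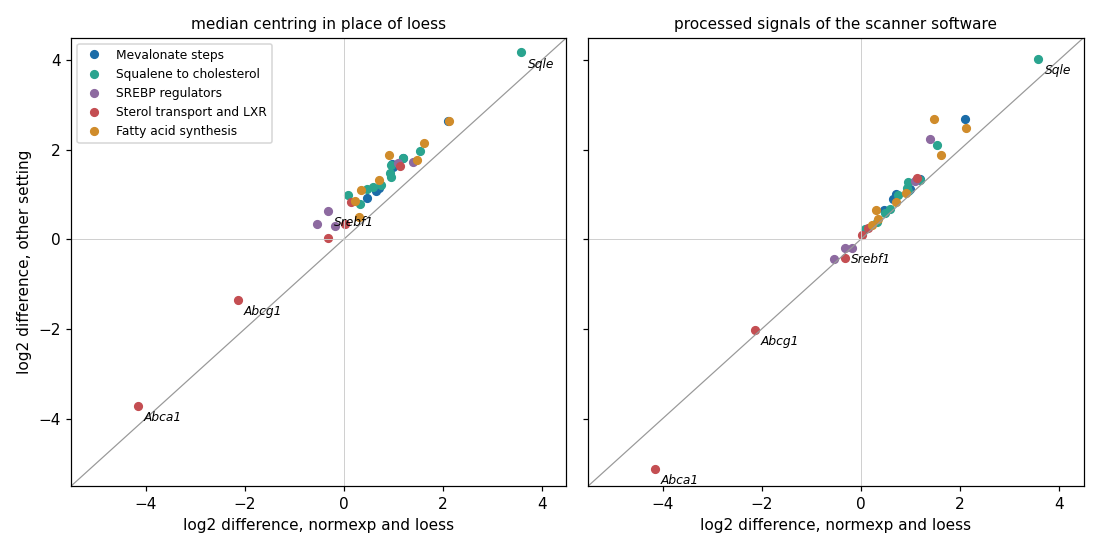
Log2 difference of each member after normexp and loess (x axis) against its value under another setting (y axis). The left panel shows median centring and the right panel the scanner software's processed signals, also centred on each array's median. The grey line marks equal values. Under median centring most members lie above the line, and Srebf1 is at 0.64 there against -0.32 after loess, while Sqle, Abca1 and Abcg1 keep their direction in both panels.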

How the data were processed

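RNA of 2 in vitro-derived and 2 thymic CD8+ T cell preps was read on 4 two-colour arrays. The authors deposited spot intensities and a log10 ratio of Cy5 over Cy3, and per the file headers the software was Agilent Feature Extraction 9.5.1.1. Their series table of log10 ratios equals the scanner's ratio.

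From the deposited intensities, spots marked as outliers or uneven (133 to 187 of 43379 per array) were left out. Background was corrected by normexp (offset 50) and dyes were balanced by loess within arrays, giving log2 ratios (R 4.3.3, limma 3.58.1). A probe was tested where, in 1 channel or both, all 4 arrays had it well above background (27236 of 41174 probes). In vitro-derived spots were above background in 66.5% to 70.9% and thymic spots in 63.7% to 65.6%, with 1 saturated spot per array; the number of arrays limits the precision. Names were updated through RefSeq (GRCm38.p6) for 8270 probes. A gene's value was the mean of its tested probes.

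Each prep lies on 2 arrays, so limma was fitted to 4 prep values per gene (2 residual degrees of freedom) with Benjamini-Hochberg adjustment over 18471 genes. SEs and p-values were moderated by limma, with 3.04 prior degrees of freedom estimated over all tested genes. An exact two-sided permutation test of 2 preps against 2 cannot go below 0.333. On simulated data with 200 of 18471 genes changed, 71.2% of 2-fold, 32.8% of 1.5-fold and 0.8% of 1.25-fold changes were called. Of all calls there, 6.16% were false. In the real data 51.8% of all tested genes passed, unlike the simulation, so these shares do not carry over to it. Prep levels came from loess followed by Aquantile scaling.

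The members and lists were chosen with earlier results of these data known. Prep values are printed for members that passed with a log2 difference of at least 0.8 in size and for those whose probes disagree in call (Ebp, Nr1h2, Nr1h3, Mylip, Srebf1 and Scap were added after seeing their values), and the 6 largest differences of at least 1 are named among further genes. The markers printed were chosen after their values were seen. Alternatives covered background, normalisation, filters, probes, arrays and preps.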

Additional observations from a re-analysis of the deposited data

Results flagged for a closer look

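Among the 37 members, 1 had an array that stood apart from its others. The log2 ratio of Scd1, in vitro-derived over thymic, was 1.65 on array 3 and 1.41 to 1.44 on the other 3 arrays. The gap to the nearest array was 0.859 of the whole range, above Dixon's 95% critical value for 4 samples. Chance gives such a gap in about 1 of 20 genes, and the 4 arrays share preps, so they are not independent.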

How the results depend on the processing

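Sqle, Idi1, Fads2, Abca1 and Abcg1 kept direction and call under all 19 alternatives: Sqle 3.40 to 4.18, Idi1 1.94 to 2.69, Fads2 1.93 to 2.65, Abca1 -5.25 to -3.61 and Abcg1 -2.26 to -1.34. Median centring raised the role medians to 1.61 (mevalonate), 1.39 (squalene to cholesterol), 0.64 (SREBP regulators), 0.19 (transport and LXR) and 1.55 (fatty acids), left 2 members lower, and turned Srebf1 (0.64), Scap (0.35), Insig2 (0.29) and Mylip (0.026, not passing). Processed signals gave 1.11 (mevalonate), 1.08 (squalene to cholesterol) and 0.93 (fatty acids). The median of squalene to cholesterol was 0.82 with the background fitted on all spots or marked spots kept, and 0.76 without the filter on dim probes. The brightest probe gave 0.16 for Insig2 and for the median of SREBP regulators. The deposited table gave medians of -0.32 (SREBP regulators) and -0.29 (transport and LXR), and Nr1h3 at -0.028. Nr1h3 was at -0.077 without in vitro-derived prep 1, 0.14 without in vitro-derived prep 2 and -0.016 without thymic prep 1, none passing. The cause was not tested. Genes called numbered 6776 with the background fitted on all spots, against 9562. Keeping marked spots also fits the background on all spots, so its 6781 calls are not a separate effect.

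Leaving out arrays or preps gave 5411 to 9472 called genes (5690 without thymic prep 1, 5411 without thymic prep 2), 24 to 28 members higher, 3 to 5 lower, and medians of 0.90 to 1.06 (mevalonate), 0.84 to 0.94 (squalene to cholesterol; 0.84 without in vitro-derived prep 2), -0.21 to -0.12 (SREBP regulators), -0.27 to -0.0098 (transport and LXR) and 0.79 to 0.85 (fatty acids). Without a thymic prep the lone thymic prep is assumed to vary like the in vitro-derived preps, whose median difference over genes was 0.094 against 0.049 between thymic preps; Nsdhl then lost its call too. Probes on RefSeq mRNA only, chosen after seeing the data, kept 28 members higher and 4 lower. Of the members' values under alternatives, 670 kept direction and call, 17 lost the call, 8 gained it and 8 turned. No paired analysis was possible because each in vitro-derived prep was hybridised against both thymic preps, so the prep numbers pair nothing.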
